A study of Mus musculus with 8 samples.

Results

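The 10 Hox genes described here pattern the hindbrain and the adjoining spinal cord of the embryo. They were chosen by name, with earlier results of these data known, and were followed into the mature brainstem as every probe annotated with one of their symbols. These were Hoxa2 and Hoxb2 of paralog group 2, Hoxb3 of group 3, Hoxa4, Hoxb4 and Hoxc4 of group 4, Hoxa5 and Hoxb5 of group 5, Hoxb6 of group 6 and Hoxb8 of group 8. The array carried 13 probes for these 10 genes, out of 25697 probes and 16593 named genes in all. Signals came from total RNA of the brainstem of 8 mice, older than the end of the ninth postnatal week, with 1 array per mouse. At that age the cKO mice are in the late stage of the disease. The limits of the dissection are not given in the sources used here. The strain was given as C57/BL6J. Both groups carried a Slc17a6-Cre transgene, in which the promoter of the vesicular glutamate transporter Vglut2 drives the Cre recombinase. The 4 Vglut2:Ndufs4cKO mice (cKO) had 1 floxed allele of the complex I subunit gene Ndufs4 and 1 allele deleted in all cells, so that Vglut2-expressing glutamatergic neurons lost the gene while other cells kept a single copy. The 4 control mice, Vglut2:Ndufs4cCT (cCT), were littermates with 1 floxed and 1 wild-type allele. The question for the Hox genes was which of them could be detected in this tissue and whether their signal differed between cKO and cCT mice.

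Hox genes encode homeodomain transcription factors and lie in 4 clusters, HoxA to HoxD. Genes at the 3′ end of a cluster (low paralog numbers) are switched on early and far forward, and genes towards the 5′ end are switched on later and further back, so that the order along the chromosome matches the order along the body axis. In the hindbrain the forward borders of groups 1 to 4 fall between rhombomeres, the segments from which the cranial motor and reticular nuclei arise, while groups 5 and above begin in the caudal medulla or the spinal cord. Hox proteins bind DNA together with TALE homeodomain cofactors of the Pbx, Meis and Pknox families. Retinoic acid and segmentation regulators such as Egr2 set up the early pattern, and Polycomb and Trithorax complexes maintain it.

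All 8 arrays lay on 1 beadchip, with the cCT arrays in its first 4 positions and the cKO arrays in its last 4, so that position and genotype cannot be told apart. Each array had between 14293 and 15042 detected probes and a mean signal between 1392.5 and 1707, and no pair of arrays was identical. Of the 4 Ndufs4 probes, ILMN_1234521 fell by 1.41 on the log2 scale in cKO mice (limma adjusted p = 0.0228), and the remaining 3 had no call. The positions of the 4 probes relative to the floxed exon are not known here. Transcripts that mark brainstem neurons were present, since Chat of cholinergic motor neurons, Tph2 of serotonergic neurons and Dbh of noradrenergic neurons were each detected on 8 of 8 arrays. In bulk tissue, fewer cells of a type and less RNA per cell cannot be told apart.

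Most of the hindbrain Hox genes described here were detected in the mature brainstem. A probe counted as detected on an array when its detection p, the chance of such a signal among the negative control probes of that array, was under 0.05, and it was tested when it was detected on at least 3 of the 8 arrays. Of the 13 probes, 9 were detected on all 8 arrays and 11 were tested (84.6%). Hoxa2 (2 probes), Hoxa4, Hoxa5, Hoxb2, Hoxb4, Hoxb5, Hoxb6 and 1 of the 3 Hoxb3 probes made up the 9. Tested shares were 59.2% of all probes on the array and 27% of the 37 probes for the other 28 Hox genes. The genes described were chosen with earlier results of these data known, so their higher share cannot show that hindbrain Hox genes are detected more often. The other Hox genes include those of paralog groups 9 to 13, with 3 of 23 probes tested. They also include Hoxb1 and Hoxa3, detected on 0 arrays and on 1 array. Hoxc4 was detected on 6 arrays, the 4 cCT and 2 of the 4 cKO arrays. The second Hoxb3 probe, ILMN_3071262, was detected on 3 arrays and the third, ILMN_1232276, on 2. Hoxb8 was detected on 1 array only, that of cCT replicate 2, and was not tested. Probes listed as not detected can still have a low signal under the background of the array. A probe can also miss a transcript. The neuronal genes Snap25, Nefl and Gad2, with 1 probe each, were detected on 0 arrays, while Nefm and Gad1 were detected on 8. A gene with 0 arrays, also one that forms a gap along a cluster, need not lack its transcript.

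**Figure D1:**
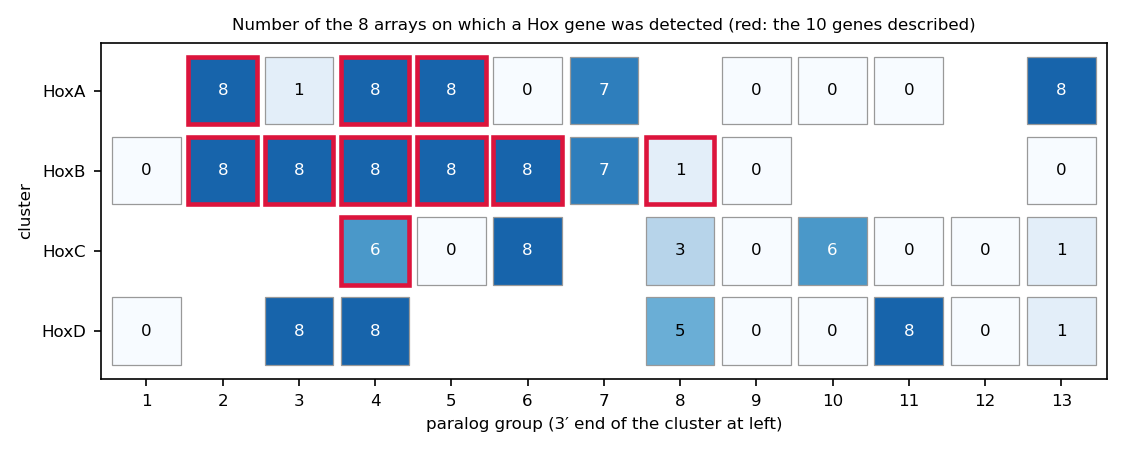
Number of the 8 arrays on which each Hox gene was detected, by cluster (vertical axis) and paralog group (horizontal axis), taking the probe with the most arrays where a gene has several; red outlines mark the 10 genes described, and blank positions hold no value. In HoxB the detected genes form 1 unbroken run from Hoxb2 to Hoxb7, while Hoxb8 was detected on 1 array and Hoxb1, Hoxb9 and Hoxb13 on 0.

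Detection was most frequent in the middle of the clusters. Over all Hox genes on the array, 0 of 3 probes of paralog group 1 were tested, 12 of 16 of groups 2 to 5, 6 of 8 of groups 6 to 8, and 3 of 23 of groups 9 to 13. Of these last 23 probes, 17 were detected on no array. In the HoxB cluster on chromosome 11, Hoxb2, Hoxb3, Hoxb4, Hoxb5 and Hoxb6 were each detected on 8 arrays and Hoxb7, the next gene, on 7. The run stopped at Hoxb8, with 1 array, and at Hoxb9 and Hoxb13, with 0, and at its 3′ end Hoxb1, a gene of rhombomere 4, was detected on 0. HoxA on chromosome 6 was less regular. There Hoxa2, Hoxa4 and Hoxa5 were detected on 8 arrays and Hoxa7 on 7, but Hoxa3 on 1 and Hoxa6, Hoxa9, Hoxa10 and Hoxa11 on 0. In HoxC on chromosome 15, Hoxc4 was detected on 6 arrays, Hoxc6 on 8 and Hoxc8 on 3, and Hoxc5, between Hoxc4 and Hoxc6, on 0. The exceptions at the 5′ ends were Hoxd11 and 1 of the 3 Hoxa13 probes on 8 arrays and 1 Hoxc10 probe on 6. The other 2 Hoxa13 probes were not tested.

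Promoter sequences from RefSeq (assembly GRCm38.p6) matched 5 of the 10 genes: Hoxa2, Hoxa5, Hoxb4, Hoxb8 and Hoxc4. They are shown for Hoxa2 and Hoxb4, detected on all 8 arrays, and for Hoxb8, at the end of the detected run in HoxB, as the 250 bases before the annotated start, 5′ to 3′ on the strand of the gene. Capitals mark matches on either strand to the TATA box (TATAAA), the CCAAT box (CCAAT), a pattern bound by Hox and Pbx proteins together (TGATNNAT) and a pattern bound by Cdx proteins (TTTATG).
Hoxa2, chr6:52164832-52165081, minus strand: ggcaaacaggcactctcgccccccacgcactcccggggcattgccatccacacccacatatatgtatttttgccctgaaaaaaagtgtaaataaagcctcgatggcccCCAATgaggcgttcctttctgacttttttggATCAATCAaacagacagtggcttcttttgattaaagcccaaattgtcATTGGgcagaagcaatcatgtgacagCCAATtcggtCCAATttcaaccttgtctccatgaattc
Hoxb4, chr11:96318017-96318266, plus strand: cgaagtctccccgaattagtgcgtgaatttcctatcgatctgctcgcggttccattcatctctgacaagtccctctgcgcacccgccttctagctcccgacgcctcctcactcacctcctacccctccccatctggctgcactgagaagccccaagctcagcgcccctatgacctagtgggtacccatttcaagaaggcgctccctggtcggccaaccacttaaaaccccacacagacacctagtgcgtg
Hoxb8, chr11:96281655-96281904, plus strand: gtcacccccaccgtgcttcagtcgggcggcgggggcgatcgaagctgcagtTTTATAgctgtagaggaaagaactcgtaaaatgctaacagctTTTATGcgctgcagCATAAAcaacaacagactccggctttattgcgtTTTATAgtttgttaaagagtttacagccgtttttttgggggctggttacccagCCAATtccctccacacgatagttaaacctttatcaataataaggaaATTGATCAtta
The Hoxa2 window held 4 CCAAT matches and 1 Hox-Pbx match, the Hoxb4 window held none of the 4 patterns, and the Hoxb8 window held 2 TATA, 1 CCAAT, 1 Hox-Pbx and 2 Cdx matches. Among 32851 mouse promoters of the same length, 12.4% held a TATA match, 33.8% a CCAAT match, 7.68% a Hox-Pbx match and 10.8% a Cdx match. The CpG dinucleotides numbered 6 for Hoxa2, 28 for Hoxa5, 14 for Hoxb4, 12 for Hoxb8 and 8 for Hoxc4, against a median of 6.0 over all promoters. These are matches of letters and were not set against binding data.

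None of the hindbrain Hox genes differed between cKO and cCT mice by the test. With limma, 0 of the 11 tested probes passed an adjusted p of 0.05, 0 had an unadjusted p under 0.05, and in 0 were the groups free of overlap. Of all 15225 tested probes, 107 (0.703%) passed, 102 (0.67%) of them higher and 5 (0.0328%) lower in cKO. An unadjusted p under 0.05 was reached by 6.86% of all tested probes on the higher and 3.02% on the lower side, and groups without overlap were seen in 4.01% on the higher and 1.79% on the lower side. At these shares, a count of 0 among 11 probes is near the background. The log2 fold changes (cKO minus cCT) of the 11 probes ran from -0.59 (Hoxb6) to 0.25 (Hoxa4) with a median of -0.14, and 9 of 11 were below 0. Over all tested probes the median was 0.01 and 48.2% were below 0. Among the 10 tested probes of other Hox genes the median was -0.19 and 8 were below 0. The 11 probes cover 9 genes, read in the same 8 mice. Values below are log2 of the background-corrected signal plus 16, scaled to equal array means, and since each probe has its own affinity they are compared between mice and never between genes.

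**Figure D2:**
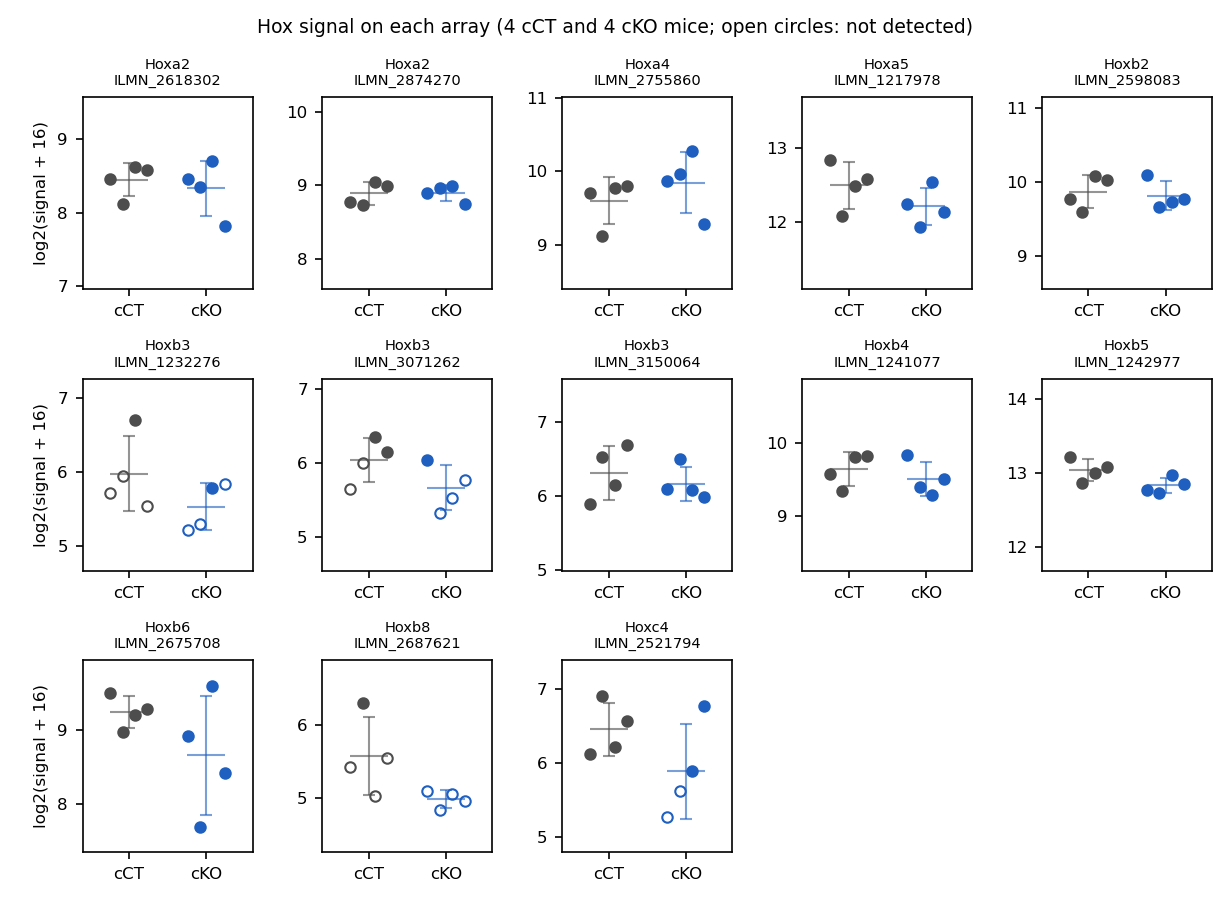
Log2(signal + 16) of each of the 13 probes (1 panel per probe) in the 4 cCT mice (grey) and the 4 cKO mice (blue), with replicates 1 to 4 from left to right, horizontal lines at the group means and bars of 1 SD; open circles are arrays on which the probe was not detected, and every panel spans the same log2 range. The groups overlap in all 11 tested probes, and the widest spread is that of Hoxb6 in cKO mice.

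The group 2 genes had the smallest differences. Hoxa2 sets the identity of rhombomere 2 and of the second branchial arch, and Hoxb2 takes part in the development of the facial motor neurons of rhombomere 4. On probe ILMN_2618302 Hoxa2 had log2 signals of 8.46, 8.12, 8.62 and 8.57 in cCT replicates 1 to 4 and 8.45, 8.35, 8.70 and 7.82 in cKO replicates 1 to 4. On probe ILMN_2874270 it had 8.78, 8.73, 9.05 and 8.999 in cCT and 8.90, 8.96, 8.999 and 8.76 in cKO. The lowest mouse on the first probe, cKO replicate 4, lay within the cCT range on the second. Log2 fold changes were -0.12 (95% confidence interval -0.56 to 0.33, limma adjusted p = 0.888) and 0.01 (-0.27 to 0.29, adjusted p = 0.986). Hoxb2 gave 9.77, 9.59, 10.07 and 10.03 in cCT mice and 10.09, 9.66, 9.73 and 9.77 in cKO mice. Its highest value was in cKO replicate 1 and its lowest in cCT replicate 2, and the log2 fold change was -0.06 (-0.40 to 0.29, adjusted p = 0.936). For the second Hoxa2 probe and for Hoxb2 these intervals place the cKO level between 0.83 and 1.22 times and between 0.76 and 1.22 times that of cCT.

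Hoxb3, a gene of the hindbrain from rhombomere 5 backwards, was read by 3 probes, all of them close to the background. Its best detected probe, ILMN_3150064, read 5.89, 6.52, 6.15 and 6.69 in cCT mice and 6.10, 6.51, 6.08 and 5.99 in cKO mice. The log2 fold change was -0.14 (-0.59 to 0.30, limma adjusted p = 0.845). ILMN_3071262, above background on 2 cCT arrays and 1 cKO array, read 5.65, 6.001, 6.35 and 6.15 against 6.04, 5.33, 5.53 and 5.76, with -0.37 (-0.81 to 0.07, adjusted p = 0.585). The untested ILMN_1232276 read 5.72, 5.94, 6.71 and 5.54 against 5.21, 5.30, 5.78 and 5.84. In the annotation the Hoxb3 gene spans Hoxb4 on the same strand. The positions of the 3 probes are not known here, and which of the overlapping transcripts each one reads cannot be told apart.

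In group 4, whose genes mark the caudal hindbrain from about rhombomere 7 backwards, Hoxa4 had the largest upward estimate of the 11 probes and Hoxc4 had one of the 2 largest downward estimates, and neither passed the test. Hoxa4 read 9.71, 9.13, 9.77 and 9.80 in cCT mice and 9.87, 9.97, 10.27 and 9.29 in cKO mice. A single mouse of each group, cCT replicate 2 and cKO replicate 4, lay below the remaining 6. Hoxa4 averaged 9.60 ± 0.32 in cCT and 9.85 ± 0.41 in cKO mice (mean ± SD of 4 mice). The log2 fold change was 0.25 (-0.27 to 0.76, limma adjusted p = 0.756), and it was 0.09 without cCT replicate 2 and 0.43 without cKO replicate 4. Hoxb4, which has a retinoic acid response element in its hindbrain enhancer, read 9.58, 9.34, 9.81 and 9.82 in cCT and 9.83, 9.40, 9.30 and 9.51 in cKO. The groups overlapped over most of their range, with a log2 fold change of -0.13 (-0.49 to 0.24, adjusted p = 0.824). Hoxc4 read 6.11, 6.91, 6.22 and 6.57 in cCT mice and 5.26, 5.62, 5.89 and 6.77 in cKO mice. The cKO values of 3 mice lay below every cCT value and that of replicate 4 lay among the highest, with cKO replicates 1 and 2 not detected. Its means were 6.45 ± 0.36 and 5.88 ± 0.64, a log2 fold change of -0.57 (-1.26 to 0.13, adjusted p = 0.600). Without cKO replicate 4 it was -0.86 with an adjusted p of 0.0857, the lowest adjusted p of any of the 11 probes under any setting, and without cKO replicate 1 it was -0.36.

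The group 5 genes, which begin in the caudal medulla and cervical cord, were well above background on every array. Hoxa5, needed in the mouse for the development of the airways and of phrenic motor neurons, read 12.84, 12.08, 12.48 and 12.58 in cCT mice and 12.25, 11.94, 12.54 and 12.14 in cKO mice. Its highest mouse was cCT replicate 1 and its lowest cKO replicate 2, and cCT replicate 2 lay within the cKO range. The log2 fold change was -0.28 (-0.70 to 0.14, limma adjusted p = 0.663). Hoxb5, known for its role in vagal neural crest, read 13.23, 12.87, 13.004 and 13.08 in cCT mice and 12.78, 12.73, 12.98 and 12.86 in cKO mice. Its mean was 13.05 ± 0.15 in cCT and 12.84 ± 0.11 in cKO, a log2 fold change of -0.21 (-0.48 to 0.06, adjusted p = 0.621). In 3 of the 4 cKO mice the value lay below the lowest cCT value, 12.87. Hoxb5 was also the gene with the smallest within-group SD of the 10, 0.13, which was larger than that of 11.9% of tested probes, and its interval places the cKO level between 0.72 and 1.05 times that of cCT.

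**Figure D3:**
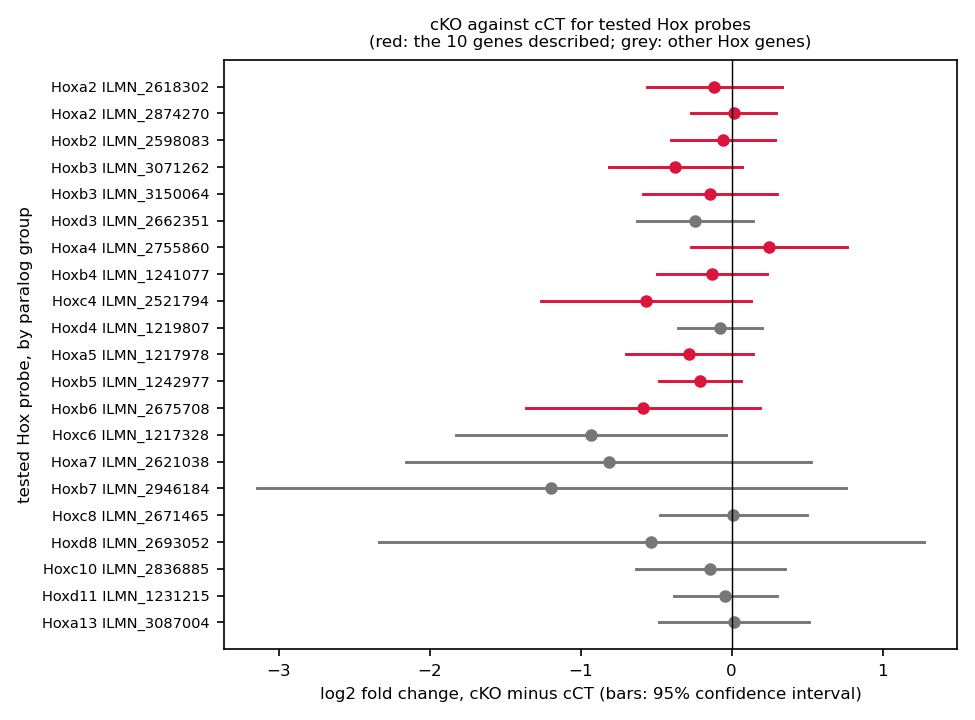
Log2 fold change of cKO against cCT mice (point) with its 95% confidence interval (bar) for the 21 tested Hox probes, ordered from paralog group 2 at the top to 13 at the bottom; red marks the genes described and grey the other Hox genes. The intervals of all red probes cross 0, and those of Hoxa7, Hoxb7 and Hoxd8 are the widest.

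Hoxb6 had the largest spread between mice of the 11 tested probes, and Hoxb8 was near background. Hoxb6 read 9.51, 8.98, 9.21 and 9.30 in cCT mice and 8.93, 7.70, 9.60 and 8.43 in cKO mice. The cCT values lay close together while the cKO values included the highest mouse (replicate 3) and the 3 lowest, with means of 9.25 ± 0.22 and 8.66 ± 0.80. The log2 fold change was -0.59 (-1.36 to 0.19, limma adjusted p = 0.626), and it was -0.27 without cKO replicate 2 and -0.90 without cKO replicate 3. Hoxb8, without which mice groom excessively, gave unnormalized signals of 231.4, 271.2, 189.1 and 214.2 in cCT mice and 192.1, 169.3, 187.7 and 175.9 in cKO mice. The 1 detected value, 271.2, was read from 19 beads, the fewest of the 8 arrays for this probe, and the next lowest bead number was 23. With 7 of 8 values not detected, no fold change is given for Hoxb8.

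The spread between mice of a group was greater for the Hox genes of groups 6 to 8 than for those of groups 2 to 5. The within-group SD of the 12 tested Hox probes of groups 2 to 5 had a median of 0.27, with a range from 0.13 (Hoxb5) to 0.52 (Hoxc4), against a median of 0.25 over all tested probes. For the 6 tested probes of groups 6 to 8 the median was 0.86, and 5 of the 6 had a larger SD than 90% of all tested probes. Hoxb6 (SD 0.59) exceeded 94.8% of tested probes, Hoxc6 (0.68) 97.2%, Hoxa7 (1.04) 99.7%, Hoxd8 (1.41) 99.97% and Hoxb7 (1.53) 99.99%, while Hoxc8, dim and detected on 3 arrays, exceeded 72.1%. The 3 tested probes of groups 9 to 13 had a median SD of 0.35, and 0 of 3 exceeded 90%. Without cKO replicate 2 the median of groups 6 to 8 was 0.56, 4 of the 6 exceeded 90%, and the SD of Hoxb6 was 0.41, more than that of 80.3% of tested probes. This contrast of the gene groups was made after the values had been seen and is given with no test. Hoxb7, the neighbour of Hoxb6, read 9.49, 10.26, 9.65 and 9.81 in cCT mice and 9.16, 5.56, 10.54 and 9.17 in cKO mice, and was not detected in cKO replicate 2. Its highest and lowest mice differed at least 25.8-fold, those of Hoxc6 6.81-fold and those of Hoxb6 3.73-fold. In the members of groups 2 to 5 that were detected on all arrays, the highest and lowest mice differed between 1.25-fold (Hoxa2 on ILMN_2874270) and 2.21-fold (Hoxa4).

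**Figure D4:**
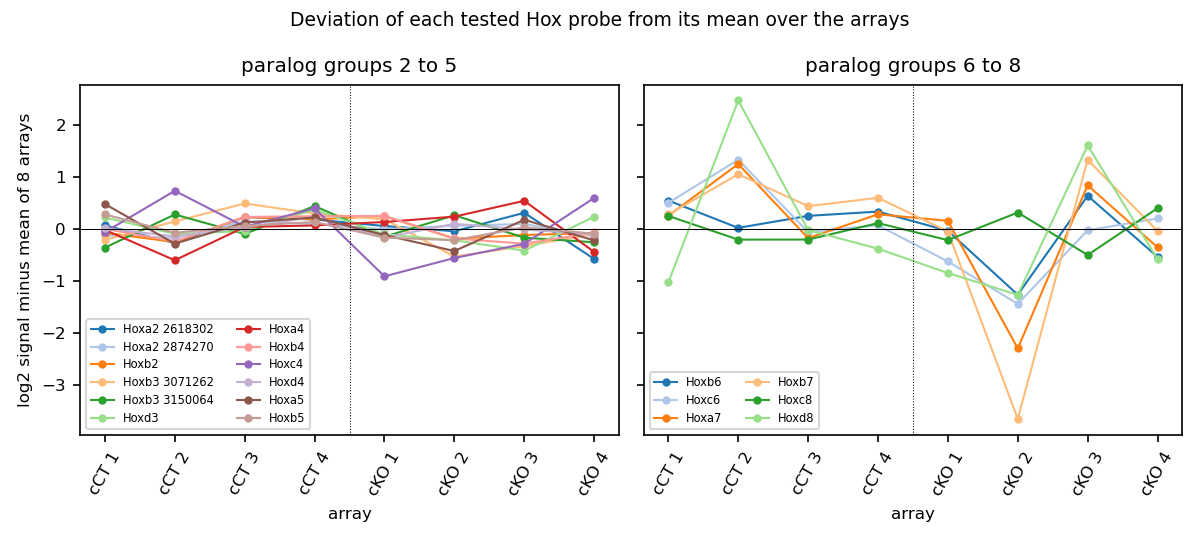
Deviation of the log2 signal from its mean over the 8 arrays for each tested Hox probe of groups 2 to 5 (left) and 6 to 8 (right), with arrays on the horizontal axis and a dotted line between cCT and cKO. Values on the left stay within 1 of the mean, while on the right 5 of the 6 probes lie over 1 below it in cKO replicate 2 and Hoxc8 does not; Hoxa7, Hoxb7 and Hoxd8 were not above background on that array.

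The same mice were at the extremes for several genes of groups 6 to 8. Array by array, cKO replicate 2 was the lowest for 4 of the 6 tested probes of groups 6 to 8 (Hoxb6, Hoxa7, Hoxb7 and Hoxc6), while for Hoxd8 it was 1 of 3 mice not above background, which have no order, and cCT replicate 2 or cKO replicate 3 was the highest for 5 of the 6. Among the 11 tested probes of the genes described, cKO replicate 2 was the lowest detected mouse for 3, Hoxa5, Hoxb5 and Hoxb6. A control mouse, cCT replicate 2, was also the lowest for 3, Hoxa2 on ILMN_2874270, Hoxa4 and Hoxb2. Without cKO replicate 2 the log2 fold change of Hoxb7 went from -1.19 to -0.18 and its SD from 1.53 to 0.56, and that of Hoxa7 from -0.81 to -0.19 with an SD of 0.60. Hoxd8 kept an SD of 1.46 without that mouse, and its log2 fold change of -0.53 turned to 0.20 without cCT replicate 2. Of the other Hox genes, Hoxc6 was the 1 probe with an unadjusted p under 0.05 (0.0424), with a log2 fold change of -0.93 (-1.82 to -0.04, limma adjusted p = 0.484). It was -0.61 without cKO replicate 2. Hoxd3, Hoxd4, Hoxc10, Hoxd11 and Hoxa13 had log2 fold changes between -0.24 and 0.02 and Hoxc8 had 0.01, with no call.

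**Figure D5:**
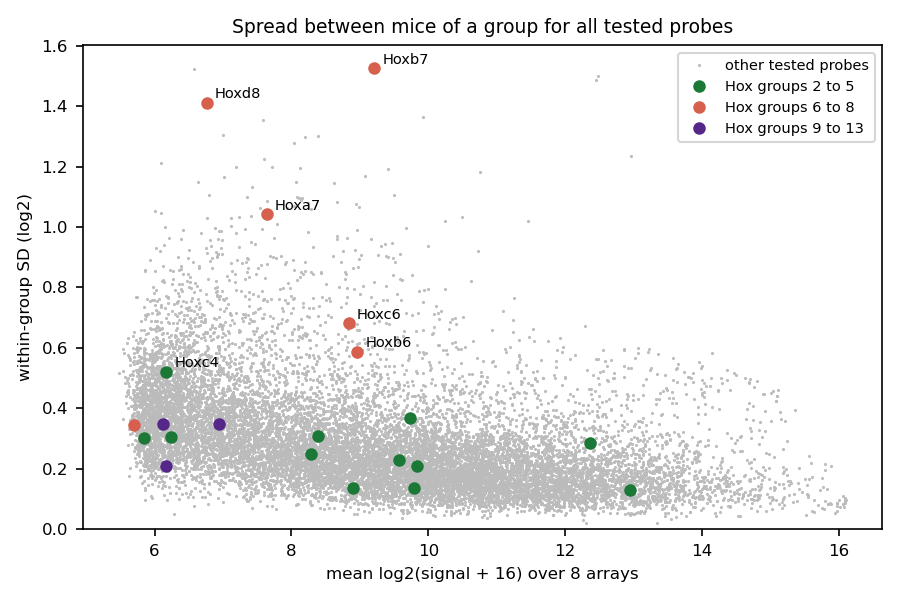
Within-group SD of the log2 signal (vertical axis) against the mean log2 signal over 8 arrays (horizontal axis) for all tested probes (grey), with the tested Hox probes of groups 2 to 5 in green, 6 to 8 in red and 9 to 13 in purple. Hoxb7, Hoxd8, Hoxa7, Hoxc6 and Hoxb6 lie above the bulk of probes of like brightness, and all Hox probes of groups 2 to 5 other than Hoxc4 have an SD under 0.37.

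Marker levels in those arrays were as follows. Of 17 forebrain and midbrain markers on the array, 6 were tested (Otx1, Otx2, Tcf7l2, En1, En2 and Foxp2). Their summed level was 11.72 on the log2 scale in cCT replicate 2 and 11.49 in cKO replicate 4. It was 10.14 to 10.51 in the other 6 mice, with the 10.14 in cKO replicate 2. The 2 high sums rest mainly on different genes. Tcf7l2 reached 10.81 in cCT mice but at most 9.46 in cKO mice. En2 reached 10.64 in cKO mice but at most 9.86 in cCT mice. Cerebellar markers summed to between 14.75 and 15.64 in cCT and between 14.71 and 15.27 in cKO mice. Maxima in cKO and cCT mice were 10.17 and 8.70 for Pcp2, 8.18 and 6.63 for Neurod1 and 12.31 and 11.51 for Zic1. For Barhl1 (7.44 and 7.88) and Pvalb (14.72 and 15.3) the cCT maximum was higher. Gabra6, detected on 1 array and not tested, reached 8.09 in cKO and 5.65 in cCT mice. Which mice gave these maxima is not stated here. The telencephalic genes Emx2, Neurod6, Dlx1 and Dlx2 were detected on 0 arrays, and Tbr1 of the same list was detected on 1. Hindbrain neuron transcription factors (12 of 17 tested) summed to between 11.86 and 12.06 in cCT and between 12.06 and 12.14 in cKO mice. Their log2 fold changes went both ways, with Gata2 at 0.35, Phox2a at 0.37, Tlx3 at -0.16 and Lhx5 at -0.15. The summed level of 8 motor and monoaminergic markers was highest in both replicates 2, at 13.71 in cCT and 13.49 in cKO, with cKO replicate 4 close at 13.41. Log2 fold changes in this list also went both ways, with Slc18a3 at 0.46, Th at 0.51 and Slc6a4 at -0.64, and none was called. The part of these levels in the Hox values was not tested. Within an array, each of the 13 probes was read from 14 to 55 beads, and the standard error over beads was between 2.61% and 11.5% of the signal.

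Genes that work with or upstream of the Hox genes did not pass the test either. All 7 TALE cofactors on the array (Pbx2, Pbx3, Meis1, Meis2, Meis3, Pknox1 and Pknox2) were detected on 8 arrays, 0 of 7 were called, and the median log2 fold change was -0.11. The smallest p-values belonged to Meis2, with -0.33 (limma adjusted p = 0.575), and Pknox2, with 0.23 (adjusted p = 0.686). Of the retinoic acid and segmentation regulators, 13 of 19 on the array were tested, 0 were called and the median was -0.03. Egr2, which specifies rhombomeres 3 and 5, had 0.62 (adjusted p = 0.427), and Crabp1, a cellular retinoic acid binding protein, had 0.65 (adjusted p = 0.454), both with an unadjusted p under 0.05. Egr2 was detected on 4 arrays only, and its cCT mean of 5.91 lay at the background. Of the Polycomb and Trithorax genes, 20 of 21 were tested and 0 were called, with a median of -0.0017. Cbx7, a reader of the repressive Polycomb mark, had 0.55 (adjusted p = 0.297), and Kdm6b, a demethylase that removes it, had -0.45 (adjusted p = 0.526). These medians stand beside 0.01 over all tested probes.

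Cell type markers moved with genotype in 1 of the lists. Of 9 tested microglia and macrophage genes, 5 were called and all were higher in cKO mice, with a median log2 fold change of 1.25: C1qa (1.26), C1qb (1.39) and C1qc (1.47) of the complement system, the lysosomal protease Ctss (1.25) and the receptor Trem2 (1.70), with adjusted p-values between 0.0164 and 0.0436 from limma. Their summed level was between 12.98 and 13.15 in cCT and between 13.79 and 14.92 in cKO mice. The part of this shift in the Hox values was not tested. No gene was called in the lists of neurons (0 of 8, median -0.10), glutamatergic neurons (0 of 5, -0.04, with Slc17a6 at -0.17), glycinergic and GABAergic neurons (0 of 4, -0.19), cerebellar cells (0 of 7, -0.08), astrocytes (0 of 9, 0.16), oligodendrocytes (0 of 8, -0.12) or endothelium and blood (0 of 5, -0.11). Hindbrain neuron transcription factors (median 0.07), motor and monoaminergic neurons (0.26) and the forebrain and midbrain markers (-0.22) also had 0 calls. Some cerebellar markers varied widely between cKO mice, Neurod1 from 5.34 to 8.18 and Zic1 from 10.89 to 12.31. The median of that list therefore does not show how alike the mice were. At an unadjusted p under 0.05 the astrocyte list had 3 genes, all higher, among them Vim (0.85) and Gfap (0.85).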

How the data were processed

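Total RNA of brainstem from 4 Vglut2:Ndufs4cCT and 4 Vglut2:Ndufs4cKO mice was amplified, biotin-labelled and hybridized by the authors to MouseRef-8 v2 arrays of Illumina, and read in GenomeStudio (version not given in the sources used here). The authors deposited, per probe and array, the unnormalized signal intensity, the number of beads, their standard error and the detection p-value, and a second table of intensity after background subtraction and average normalization, which served as an alternative. The labels gave the group and replicate number of every array, and the methods count mice as samples.

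Calculations used limma 3.58.1 (R 4.3.3, statmod 1.5.0). Background was corrected by the normexp model (parameters from the detection p-values), arrays were scaled to equal means, 16 was added and log2 was taken, so fold changes of dim probes are understated. Probes detected (detection p below 0.05) on 3 or more arrays were fitted with lmFit and eBayes, with Benjamini-Hochberg adjustment over all 15225 and a call at an adjusted p under 0.05. The error model of the methods was not available here. The code was tested on simulated data. Symbols came from GEO's platform annotation: 23978 probes had 1 symbol, 0 several and 1719 none, and 23962 matched RefSeq by Entrez ID. A listed gene is represented by its brightest tested probe, and a summed level is the log2 of the sum over a list.

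Every probe of the 10 genes is described, the other Hox genes with a tested probe are named, and of each list those called and up to 2 with the smallest p. The 10 genes and all lists were chosen with earlier results of these data known. The number of arrays limits the precision. Alternatives were offsets of 1 and 50, quantile normalization, uncorrected background, other detection filters, the authors' table, robust moderation around a variance trend, weighted arrays, a replicate block, unadjusted p-values and each array left out in turn.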

Additional observations from a re-analysis of the deposited data

Results flagged for a closer look

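Among 42 sets of 4 mice (21 tested Hox probes in each group), 1 held a mouse far from the others: Hoxa4 in cCT replicate 2, with a log2 signal of 9.131 against 9.713 to 9.80 in the other 3 cCT mice. Chance sets apart a mouse in about 1 of 20 such groups. The log2 fold change of Hoxa4 without this mouse was 0.09, against 0.25 with it.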

How the results depend on the processing

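No hindbrain Hox probe was called under any of the alternatives run, array weights, the replicate block and each array left out included. Of 195 log2 fold changes from these alternatives 186 kept their direction and 9 reversed, all in estimates near 0. The 186 include settings that leave the fold change itself as it was and so could not reverse it. These are the other detection filters, the robust moderation and the replicate block. Hoxa2 on ILMN_2874270 turned to -0.0256 with quantile normalization, -0.0024 without background correction and -0.0029 with array weights, and ran from -0.0406 to 0.0667 with arrays left out in turn. Hoxa2 on ILMN_2618302 ran from -0.240 to 0.0557 and Hoxb2 from -0.149 to 0.0139. The number of detected Hox probes was 11, and it was 8 when a detection p under 0.01 was asked of every array of 1 group, or 9 with detection on all 8 arrays. Over all probes the 107 calls became 240 with array weights and 1505 at an unadjusted p, and with arrays left out ran from 30 (without cCT replicate 3) to 357 (without cKO replicate 4). Of those 357 calls, 234 were higher and 123 lower in cKO, against 102 and 5 with all arrays. Same-numbered mice shared no deviation in the values, since their deviations correlated between -0.26 and -0.19 and 0 of 4 matched best with their own number. Whether the numbers stand for a pairing in the design is not given by the labels. The replicate block gave 11 calls. Scaling moved the median of all probes by under 0.1 on the log2 scale. With 4 mice a group, the median half-width of the 95% interval was 0.44 for the 11 probes, and Hoxb8, 2 Hoxb3 probes and Hoxc4 lie at background on part of the arrays.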
